A study of Mus musculus with 4 samples.

Results

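The 34 mitotic genes described here were taken by symbol from a list and not by a threshold on their values, and all 34 were found among the 32245 gene symbols of the deposited matrices. The series profiled single cells of mouse gum tissue (gingiva) in 4 droplet libraries: a healthy control, gingiva under metformin (called metformin here), diseased gingiva, and diseased gingiva under metformin. The label of the metformin library names the treatment and no health state, and it was read here as gingiva without disease. No other agent and no altered allele is named for any of them. Metformin is a biguanide drug used against diabetes, and the title of the series places it in the prevention of periodontal disease. Strain, age, sex, the way disease was induced, the dose and the number of animals behind a library are not given in the sources used here. Tissue was cut from the neck of the upper-jaw gingiva, digested with collagenase type II and DNase, and passed through a strainer. Each group is 1 library, so no difference below has a replicate check and no test was made. The 4 comparisons share libraries and are therefore given side by side, each with its own values. Intervals are 95% counting intervals: they cover counting error only, and those of summed levels are too narrow, since UMIs (unique molecular identifiers, 1 per captured RNA molecule) of 1 cell are not independent.

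Cells enter mitosis with replicated chromosomes, and the proteins encoded by these genes condense the chromosomes, attach them to the spindle, hold them until all are attached, separate them and cut the cell apart. Most of the genes are silent in resting cells and are switched on late in the cycle, in G2 phase, under the MuvB complex with B-Myb and FoxM1, and their proteins are then destroyed through the anaphase-promoting complex. In stratified epithelium such as gingiva, division takes place mainly in the basal layer, next to the basement membrane, and cells leaving that layer stop dividing and begin to keratinize.

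The start sites of the genes carry the 2 short motifs long linked to late cell cycle transcription: CHR (cell cycle genes homology region), searched here as TTTGAA, which MuvB binds, and the CCAAT box, searched as CCAAT, which NF-Y binds. RefSeq windows on GRCm38.p6, from 250 bases before to 50 after the start, were found for 31 of the 34 genes; Tpx2, Aurkb and Kif20a were not matched. On either strand, CHR letters stood in the window of 25 of 31 genes and CCAAT in that of 26, and 23 genes had both. Over all 32851 RefSeq windows, 17.9% held CHR letters, 37.4% held CCAAT and 6.95% held both, against 81.8%, 84.8% and 75.8% of the 33 windows of the mitotic genes. The letters TATAAA stood in 1 of these 33 windows, that of Kif2c, and in 13.6% of all windows. Neither motif contains the other, though a CHR and a CCAAT can share an end, and a match is a description of the sequence, not a measured site. The windows of 6 genes are printed from 150 bases before the start to 30 after it, 5′ to 3′ on the gene's strand, with both motifs in capitals on either strand (TTCAAA and ATTGG are the reverse strand). The first 3 belong to genes that were higher in the metformin library than in the healthy one, the next 2 to the only genes called lower there, and Birc5 is 1 of 3 genes, with Pttg1 and Nusap1, whose whole window held neither motif.

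Ube2c, chr2:164769779-164769958, plus strand: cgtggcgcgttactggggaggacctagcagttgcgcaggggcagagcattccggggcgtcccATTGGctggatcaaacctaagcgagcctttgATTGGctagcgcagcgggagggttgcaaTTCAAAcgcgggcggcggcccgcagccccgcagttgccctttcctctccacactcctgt
Cdc20, chr4:118437314-118437493, minus strand: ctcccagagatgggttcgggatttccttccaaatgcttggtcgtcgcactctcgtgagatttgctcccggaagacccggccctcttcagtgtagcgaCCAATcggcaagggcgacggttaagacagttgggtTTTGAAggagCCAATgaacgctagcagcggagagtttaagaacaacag
Ccnb2, chr9:70421525-70421704, minus strand: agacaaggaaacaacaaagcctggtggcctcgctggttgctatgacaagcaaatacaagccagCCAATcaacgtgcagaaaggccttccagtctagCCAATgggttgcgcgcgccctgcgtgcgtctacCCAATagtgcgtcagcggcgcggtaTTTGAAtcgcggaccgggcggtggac
Ect2, chr3:27153825-27154004, minus strand: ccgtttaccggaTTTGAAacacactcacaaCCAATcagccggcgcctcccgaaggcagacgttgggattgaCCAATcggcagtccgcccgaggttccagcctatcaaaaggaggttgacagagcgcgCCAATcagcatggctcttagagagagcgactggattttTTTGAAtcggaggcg
Mki67, chr7:135716350-135716529, minus strand: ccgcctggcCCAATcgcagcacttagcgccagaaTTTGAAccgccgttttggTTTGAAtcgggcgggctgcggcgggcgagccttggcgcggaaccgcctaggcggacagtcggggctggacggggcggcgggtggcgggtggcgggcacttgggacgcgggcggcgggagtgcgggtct
Birc5, chr11:117849087-117849266, plus strand: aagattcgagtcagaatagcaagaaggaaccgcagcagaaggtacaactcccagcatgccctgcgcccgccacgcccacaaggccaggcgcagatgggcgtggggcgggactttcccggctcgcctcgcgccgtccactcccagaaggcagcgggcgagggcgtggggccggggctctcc

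Of these 6 windows, those of the 3 genes higher and of the 2 genes lower in the metformin library had both motifs; Pttg1, also called higher there and not printed, had neither. With the first transcribed base as base 1 and the one before it as -1, the CHR letters of Cdc20 begin at base -18 and those of Ube2c at base -29, each with a CCAAT upstream of it. Ccnb2 has one copy just inside the transcribed part, at base 5, and another at base -167, upstream of the printed stretch, and Mki67 holds 2 copies farther upstream, at bases -116 and -98.

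The 4 libraries held 12507787 to 22333858 UMIs, and 7134 of 8295 barcodes passed the filter (1307 healthy, 2477 metformin, 1693 disease and 1657 disease plus metformin); pairs of libraries shared 0 to 4 barcodes. Clusters were made without the mitotic genes, the other cell cycle lists and the histone genes, and were named from marker genes with the ending "-like". Cycle genes outside those lists, such as Pclaf, were not left out, and Pclaf was among the leading genes of a basal-like cluster. What part the cycle had in the clusters was not tested. A doublet caller marked 8 of 7134 cells, a share too low for it to have worked, and none was removed, so doublets remain. A cell is called cycling where UMIs of at least 3 different mitotic genes were found. Because deeper cells pass that mark more easily, shares are compared after drawing 1000 UMIs from each cell, with shallower cells left out; the share without thinning stands beside it. Keratinocyte-like cells without any mitochondrial UMI made up 45.8%, 49.1%, 30.9% and 59.4% of those cells in the healthy, metformin, disease and disease plus metformin libraries, and the part of this difference in the results was not tested.

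Cycling cells were found mainly among basal-like cells and among keratinocyte-like cells rich in RNA. At 1000 UMIs, 391 of 1169 basal-like cells (Krt5, Krt14 and Krt15 high) were cycling, 33.4% (95% Clopper-Pearson interval 30.7 to 36.2%). The share was 21.1% of 625 keratinized suprabasal-like cells (Krt76 and Krt16 high) and 4.52% of 199 soft-mucosa suprabasal-like cells (Krt4 and Krt13 high). The keratinized class was also rich in basal keratins: Krt14 and Krt15 were higher in it than in basal-like cells, and Krt5 was somewhat lower. Before thinning, basal markers stood at medians of 227 and 265 UMIs per 10000 in its cycling and other cells. In basal-like cells these medians were 197 and 248. The share of the keratinized class is therefore not read as division outside the basal layer. With the 4 libraries pooled, the order was basal, keratinized, soft-mucosa, and the 3 intervals did not overlap. These intervals treat cells of different libraries as 1 sample, and the gap differed by library. Basal-like and keratinized shares were 33.9 and 13.8% in the healthy library, but 30.3 and 25.4% in the disease plus metformin library (71 of 234 and 34 of 134 cells). A cluster of 376 keratinocyte-like cells with a median of 22410.5 UMIs, against 1312 in basal-like cells, was cycling in 46.4% of cells after thinning and in 73.9% before; its leading genes mix layers, so its layer is not named. In 2 further keratinocyte-like clusters whose layer is not named, led by Odam and Krt17, 0 of 66 thinned cells were cycling, which allows a share of up to 4.55% when 3 cells are put in place of 0 (the upper Clopper-Pearson limit is 5.44%).

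By library, the thinned share over all keratinocyte-like cells was 25, 29.7, 32.4 and 26.5% in the healthy, metformin, disease and disease plus metformin libraries, from 436, 852, 689 and 457 cells, with 27.7, 34.2, 32.1 and 29.4% before thinning. The healthy library was lowest and the disease library highest after thinning, while the metformin library was highest before it. Within the basal-like layer the thinned share was 33.9, 34.9, 33.4 and 30.3%, with intervals that overlapped. The unthinned share there was 30.6, 38.3, 32.8 and 31.6%, with metformin over healthy at a log2 ratio of 0.32 (95% interval -0.01 to 0.67, too wide for shares of this size). The make-up of that layer differed, since a basal-like cluster with Gpha2 and Cxcl14 among its leading genes held 3 healthy cells against 158, 173 and 76 of the other libraries. Keratinized suprabasal-like cells were cycling in 13.8, 21.1, 22.6 and 25.4% after and 12.0, 24.9, 18.2 and 23.7% before thinning, the healthy library lowest in both; metformin over healthy was 0.62 (95% interval -0.24 to 1.56) after and 1.05 (95% interval 0.37 to 1.80) before it. In the RNA-rich cells the share was 34.9, 44.9, 56.8 and 37.2%, with the disease library highest (48.4 to 64.9%) and not overlapping the healthy one (24.9 to 45.9%). Before thinning the same cells were at 70.9, 72.4, 75.7 and 77.3%, disease over healthy was 0.09 (95% interval -0.37 to 0.57), and the disease library was not the highest, so this difference was not seen in the unthinned shares.

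**Figure D1:**
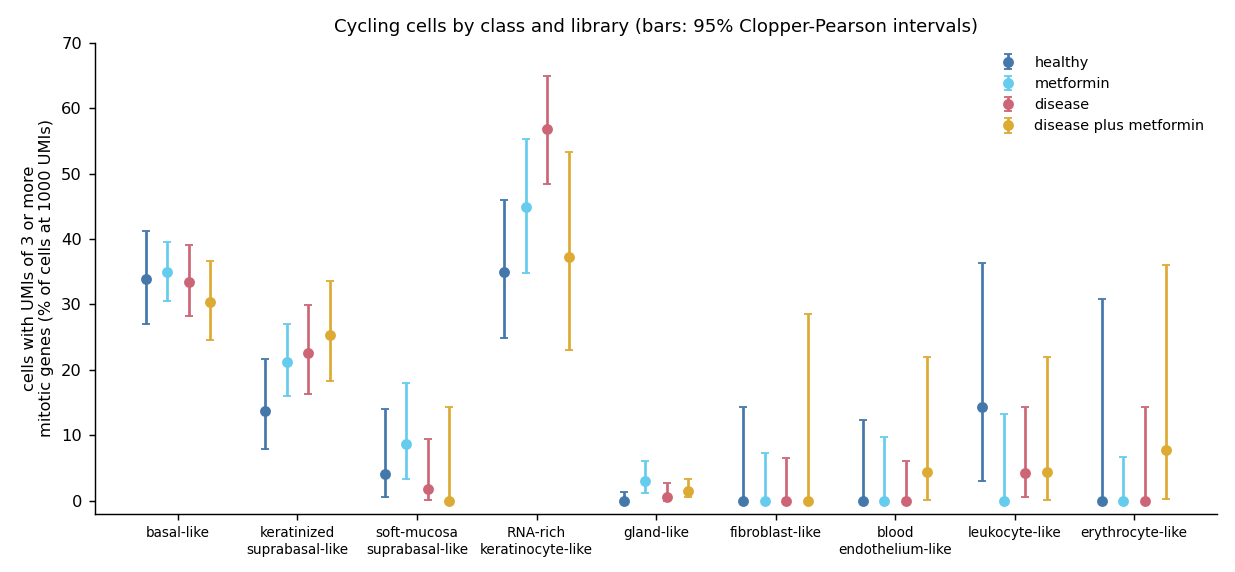
Share of cells with UMIs of 3 or more of the 34 mitotic genes (y axis, percent of cells drawn down to 1000 UMIs) in 9 cell classes (x axis) of the 4 libraries (colours), with 95% Clopper-Pearson intervals. Basal-like cells sit between 30.3 and 34.9% in every library, and the RNA-rich cells of the disease library are highest at 56.8%.

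With the 4 libraries pooled, shares in the named classes other than keratinocyte-like cells were low. Of 1123 gland-like cells 14 were cycling at 1000 UMIs (1.25%), of 139 fibroblast-like cells 0 (which allows up to 2.16% by the same floor of 3 cells, with an upper Clopper-Pearson limit of 2.62%), of 146 blood endothelium-like cells 1, of 46 pericyte or smooth muscle-like cells 0 and of 118 leukocyte-like cells 6 (5.08%). By library, the cycling leukocyte-like cells were 3 of 21 (14.3%) in the healthy, 0 of 26 in the metformin, 2 of 48 in the disease and 1 of 23 in the disease plus metformin library. Before thinning, 4.23% of fibroblast-like cells (median 7164 UMIs) passed the mark, but these 6 cells held a median of 8.63 UMIs of fibroblast markers per 10000, against 293 in the other 136. That share therefore gives no rate of false passes for the unthinned shares, since these 6 cells held few fibroblast markers. Its median depth also lies below that of RNA-rich cells (22410.5 UMIs). Of basal-like cells 34% passed, at the lower median of 1312 UMIs.

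The summed level of the 34 genes, in CPM (UMIs per 1000000 UMIs of the class), was highest in basal-like and RNA-rich keratinocytes, apart from 1 leukocyte-like value. In basal-like cells it was 2325, 3216, 2988 and 2518 in the healthy, metformin, disease and disease plus metformin libraries. Keratinized suprabasal-like cells were at 779.6, 1842, 1565 and 2207 and soft-mucosa suprabasal-like cells at 399, 817, 478 and 158. The healthy library was the lowest of the 4 in the basal-like and keratinized layers, and the highest library differed from layer to layer. RNA-rich cells were at 3272, 3652, 5116 and 3702, the disease library standing above the other 3. They were 10.3% of keratinocyte-like cells but held 68.1% of their UMIs and 80.3% of their mitotic-gene UMIs (88.1%, 73.0%, 87.5% and 74.1% by library), so sums over all keratinocyte-like cells rest mainly on them. Which genes gave most of the UMIs differed: Ube2c, Nusap1 and Cdca8 in basal-like cells (2239, 930 and 672 UMIs), Ube2c, Nusap1 and Birc5 in keratinized suprabasal-like cells (1010, 293 and 286), and Cenpf, Top2a and Ube2c in RNA-rich cells (6547, 5586 and 5516). Ube2c alone held 19.7% of the mitotic UMIs of basal-like cells and 8.10% of those of RNA-rich cells.

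**Figure D2:**
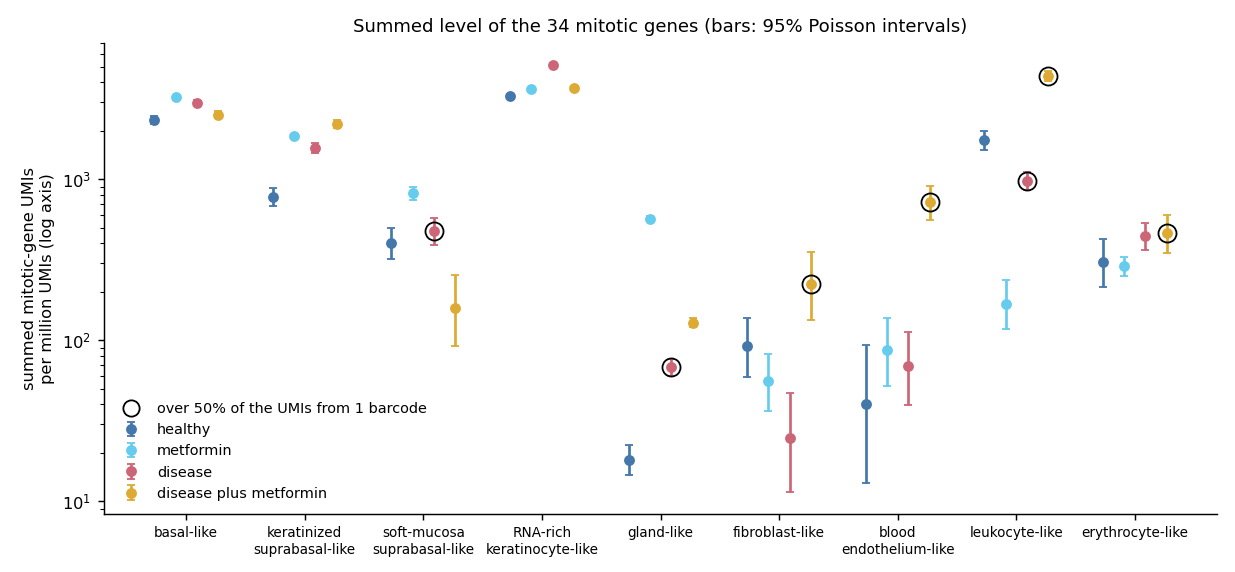
Summed CPM of the 34 mitotic genes (y axis, log scale) in 9 cell classes (x axis) of the 4 libraries (colours), with 95% Poisson intervals; black rings mark values of which 1 barcode gave over 50%. RNA-rich and basal-like keratinocytes stand at 2325 or more in every library, and the high leukocyte-like value of the disease plus metformin library (4368) comes from 1 barcode.

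Gland-like cells, rich in RNA of mucins and other secreted salivary proteins, carried few mitotic UMIs in all libraries but one. Their summed level was 18.1, 568, 68.0 and 128 CPM in the healthy, metformin, disease and disease plus metformin libraries, and the metformin library was far above the rest. There, 53 of 287 cells passed the unthinned mark (18.5%), against 1.17%, 1.28% and 3.29% in the healthy, disease and disease plus metformin libraries; after thinning the shares were 0, 2.97, 0.485 and 1.52%, and the interval of the metformin library (1.20 to 6.02%) overlapped that of the disease plus metformin library (0.561 to 3.28%). The gland-like cluster led by Bpifb2, Wfdc12 and Tff2 gave 17 of these cells, of 108, and 2740 of the 3332 UMIs. A gland-like cluster led by Sbpl, Bpifb1 and Dcpp2 gave 29 of 40 at 339 CPM, where the healthy library had 0 of 25 at a like depth and the disease library had 1 such cell (median 33817 against 35289 UMIs). These 40 cells held 513 mitotic UMIs in all. Cells this deep pass the unthinned mark at a low level, so 29 of 40 is not read as a share of dividing cells. Within these clusters cycling cells of the metformin library held somewhat fewer gland markers than the other cells, at medians of 1618 against 1902 UMIs per 10000 in the first and 2655 against 2715 in the second. Keratinocyte markers were also slightly higher in the cycling cells of the first, and stood at 16.5 against 8.62 in the second; in a further gland-like cluster, led by Muc5b and Muc19, the 5 cycling cells held 96.7 against 9.67, and the part of keratinocyte RNA in these values was not tested. A single cell held UMIs of all 34 genes, 773 in all, and 2.74 UMIs per 10000 of basal markers; without it the library's level was 441 CPM. In the disease library 1 cell held 58.4% of the gland-like mitotic UMIs, and in the disease plus metformin library 47.2%; without these cells the levels were 28.5 and 68.1. Cycling gland-like cells held 1.75, 15.7, 19.9 and 19.9 mitotic UMIs per 10000 in the healthy, metformin, disease and disease plus metformin libraries, from 4, 53, 3 and 17 cells. Cycling keratinocyte-like cells held 36.4, 42.2, 56.8 and 41.8.

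Among leukocyte-like cells, mostly macrophages or dendritic cells, mitotic RNA sat in single cells. The summed level was 1738, 169, 973 and 4368 CPM in the healthy, metformin, disease and disease plus metformin libraries, from 23, 30, 54 and 27 cells. In the disease plus metformin library 1 barcode gave 97.0% of it: it held all 34 genes, 709 of 49673 UMIs, with 41.9 UMIs per 10000 of macrophage or dendritic cell markers and 0.805 of basal keratinocyte markers, and without it the level was 187. In the disease library 1 barcode with 30 of the genes gave 60.6%, and the level without it was 403; in the healthy library 1321 remained without the top barcode. The highest value of this class is thus that of 1 barcode. Top2a and Mki67 led here, with 153 and 126 UMIs, followed by Cenpf with 79. Blood endothelium-like cells were at 39.9, 87.2, 69.6 and 719, and in the disease plus metformin library 97.0% came from 1 barcode, without which the level was 22.4. Fibroblast-like cells were at 92.1, 55.7, 24.9 and 224, from 24, 51, 56 and 11 cells, of which 1 barcode gave 94.4% in the disease plus metformin library.

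Erythrocyte-like cells, full of hemoglobin RNA and without a nucleus when mature, carried mainly 3 of the genes when pooled. Ube2c, Pttg1 and Nusap1 made up 28.9%, 25.7% and 17.0% of their mitotic UMIs, against 10.5%, 3.90% and 5.56% in keratinocyte-like cells. Ube2c was found in 37 of 100 of these cells and Pttg1 in 41, while Mki67 was found in 5. Ube2c stood at 102, 96.2, 113 and 73.0 CPM in the 4 libraries in the same order. The disease plus metformin library differed, with Mki67 at 81.1, Birc5 at 64.9 and Pttg1 at 8.11 CPM, and 1 of its 13 cells gave 75.4% of its mitotic UMIs. Before thinning 27.0% of them passed the mark of 3 genes, and after it 1 of 100 did, so their unthinned share is not read as division.

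The 5 clusters left without a name held 1428 of the 7134 cells and 196 of the 1471 cycling cells counted without thinning. Their thinned share was 13.5, 8.94, 6.93 and 3.63% in the healthy, metformin, disease and disease plus metformin libraries. Most of these cells lay in 2 clusters led by Wfdc18, Bpifb2 and Muc5b and by Dcpp2, Dcpp3 and Dcpp1, genes of salivary secretion, which the disease library almost lacked, with 2 and 1 cells. In the first, which also had Krt15 among its leading genes, 37 of 219 thinned cells were cycling (16.9%), after 497 shallower cells were left out. In the second the thinned share was 5.03% in the metformin and 4.31% in the disease plus metformin library, and 30.1% and 7.47% before thinning. The libraries thus differed in which cells they held, and the part of this in the results was not tested.

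All 34 genes were measured in keratinocyte-like cells of every library, with 431 to 8897 UMIs over the 4 libraries, and values below are CPM in the healthy, metformin, disease and disease plus metformin libraries in that order. UMI levels are not scaled by length, so genes are not ranked against one another. Among the genes of chromosome structure, Top2a encodes the topoisomerase that untangles sister chromatids and Mki67 the protein that coats mitotic chromosomes. Top2a was at 273, 202, 314 and 177 CPM. Mki67 was at 169.9, 110.3, 215 and 128 CPM. Both were highest in the disease library and lower in the 2 metformin libraries than in the healthy one. Cdk1, the kinase that starts mitosis, was at 87.8, 116, 142 and 106; its B-type cyclins, which switch it on, were at 54.6, 70.3, 82.3 and 67.1 (Ccnb1) and 51.2, 89.9, 98.6 and 88.2 (Ccnb2). All 3 were lowest in the healthy library and highest in the disease library. Plk1, a kinase of centrosome maturation and mitotic exit, was at 14.4, 26.4, 28.9 and 20.8, and Aurka, the kinase of the spindle poles, at 24.4, 32.7, 46.1 and 31.1. Cdkn3, a phosphatase that acts on cyclin-dependent kinases, was at 37.1, 66.1, 63.7 and 65.4, and Cdca3, linked to mitotic entry, at 45.0, 68.4, 75 and 71.4. The healthy library was again the lowest for these 4, and for Cdkn3 the other 3 libraries lay within a narrow range.

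The spindle checkpoint proteins hold division back until every chromosome is attached. Bub1 was at 21.0, 15.8, 25.9 and 18.7, Bub1b at 21.6, 17.8, 29.5 and 27.0 and Ttk at 28.7, 21.1, 31.8 and 20.6. They were highest in the disease library, and in contrast to the cyclins the healthy library was above the metformin library for each. The next genes act when the checkpoint is satisfied: Ube2c and Cdc20 belong to the anaphase-promoting complex, as its ubiquitin-conjugating enzyme and its activator, and Pttg1 is securin, the inhibitor it destroys. Ube2c was at 218, 383, 409 and 355 CPM. Cdc20 was at 61.0, 99.6, 106 and 76.0 CPM. Pttg1 was at 82.0, 141, 162 and 115 CPM. Each was lowest in the healthy library, then in the disease plus metformin library, and highest in the disease library. The chromosomal passenger complex corrects wrong attachments: its kinase Aurkb was at 34.1, 36.2, 46.5 and 31.6, survivin (Birc5) at 122, 169, 184 and 153 and borealin (Cdca8) at 113, 122, 162 and 119.8. At the kinetochore, the histone variant Cenpa was at 96.2, 146, 175 and 166, the motor Cenpe at 64.3, 49.4, 110.2 and 68.7 and Cenpf at 229.8, 241, 409.8 and 306. Disease was the highest library for all 6, and Cenpe was the only one of them lower in the metformin than in the healthy library.

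Of the spindle motors and assembly factors, Kif11, which pushes the poles apart, was at 66, 44.2, 73.8 and 54.9, and Kif2c, which takes microtubules apart, at 12.9, 18.4, 28.5 and 21.9. Tpx2, which activates Aurka on the spindle, was at 63.6, 59.5, 96.4 and 61.1, and the spindle-bound proteins Hmmr and Nusap1 at 64.3, 67.8, 99.2 and 64.1 (Hmmr) and 168, 190.5, 220.2 and 150.1 (Nusap1). The 2 related spindle proteins Ckap2 and Ckap2l were at 60.0, 67.8, 90.1 and 52.5 (Ckap2) and 92.1, 89.9, 138 and 85.5 (Ckap2l). The disease library was highest for all 7, and the healthy library was lowest for Kif2c alone. In the midzone, where the cell is cut, Prc1 bundles microtubules and was at 141, 158, 249 and 137. The kinesins Kif20a and Kif23 were at 15.4, 18.5, 20.7 and 9.74 (Kif20a) and 60.8, 44.1, 87.7 and 50.8 (Kif23). Racgap1, the partner of Kif23, was at 47.1, 42.6, 55.1 and 41.1, the cytokinesis factor Ect2 at 69.4, 40.4, 83.7 and 57.9 and the furrow scaffold Anln at 117, 83.2, 151 and 93.8. Disease was the highest library here too, and Kif23, Ect2 and Anln were lowest in the metformin library. Cycling cells were also chosen with the other 33 genes alone; the gene left out was then found in 17.7 to 75.9% of those cells, and its level in them was 11.8 to 53.7 times that in the other keratinocyte-like cells.

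**Figure D3:**
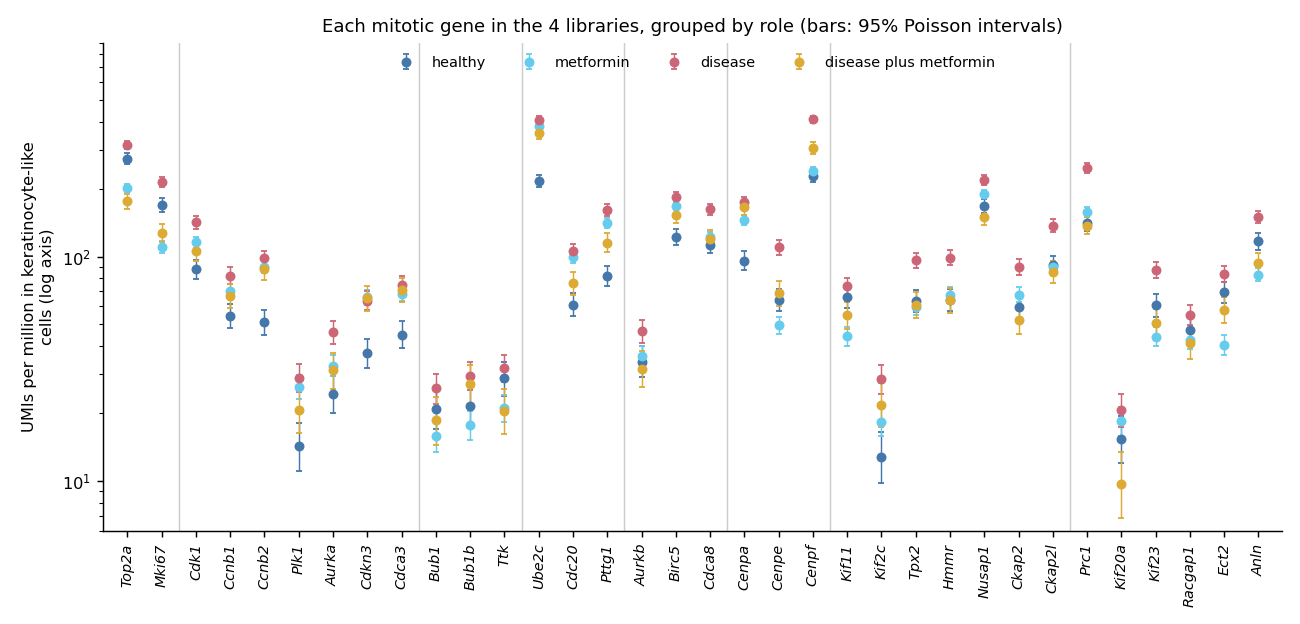
CPM of each of the 34 mitotic genes in keratinocyte-like cells (y axis, log scale) in the 4 libraries (colours), ordered by role with grey lines between roles (x axis), with 95% Poisson intervals. The disease library is the highest for every gene but Cdkn3, where the metformin library stands at 66.1 and the disease library at 63.7.

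The first comparison asks how mitotic RNA differs between diseased and healthy gingiva. In keratinocyte-like cells the 34 genes together were at 4309.6 CPM in the disease library and 2827 in the healthy one, a log2 ratio of 0.61 (95% interval 0.58 to 0.64), or 1.52-fold. All 34 genes were higher in the disease library, and 19 of 34 were called higher, meaning at least 1.5-fold with at least 20 UMIs over both libraries; 0 were called lower. Over all 11729 genes with 20 UMIs, 7.26% were called higher and 6.1% lower, and the median log2 ratio was 0.01 against 0.59 for the mitotic genes. The largest differences were those of Kif2c, 1.15 (95% interval 0.72 to 1.59), Plk1, 1.01 (95% interval 0.60 to 1.44), Pttg1, 0.98, and Ccnb2, 0.95. The smallest were Ttk, 0.15 (95% interval -0.17 to 0.47), Kif11, 0.16, Top2a, 0.20, and Racgap1, 0.23. The thinned share of cycling cells was 32.4% against 25%, a log2 ratio of 0.37 (95% interval 0.04 to 0.72), and before thinning 0.21 (95% interval -0.05 to 0.47). Both intervals are too wide for shares of this size, so the second does not decide whether the unthinned shares differed. Cycling cells held 56.8 against 36.4 mitotic UMIs per 10000, a log2 ratio of 0.64 (95% interval 0.61 to 0.67), read from cells that were not thinned; this value lies within the interval of the share's ratio. In cycling cells chosen by the other 33 genes, 20 of 34 were called higher and 0 lower, with 7.97% and 6.09% of all genes. Without the RNA-rich cluster the summed difference was 0.54 and that per cycling cell 0.39.

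By layer, the summed log2 ratio of disease over healthy was 0.36 (95% interval 0.26 to 0.46) in basal-like, 1.00 (95% interval 0.79 to 1.22) in keratinized suprabasal-like, 0.26 (95% interval -0.17 to 0.69) in soft-mucosa suprabasal-like and 0.64 in RNA-rich cells. In basal-like cells the share of cycling cells did not differ beyond counting error, at a log2 ratio of -0.02 (95% interval -0.49 to 0.46). Other lists of the cycle differed in size. Of 40 other mitotic genes 8 were called higher and 0 lower (median 0.39), of 29 genes of S phase and replication 1 and 3 (median -0.12). Of 51 measured replication-dependent histone genes, whose RNA mostly lacks a poly(A) tail and is made in S phase, 44 were called higher (median 1.25). The replication enzymes thus did not stand higher with the mitotic genes and the histone RNA.

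The second comparison sets the metformin library, whose label gives no health state, against the healthy control. Here the 34 genes parted: Ube2c, Cdc20, Pttg1 and Ccnb2 were higher in the metformin library, and Mki67 and Ect2 were lower. The sum was 3151 against 2827 CPM, a log2 ratio of 0.16 (95% interval 0.13 to 0.19). Called higher were 8 genes (Plk1, Cdkn3, Ccnb2, Ube2c, Pttg1, Cdc20, Cenpa and Cdca3) and called lower 2 (Mki67 and Ect2), and 21 stood above and 13 below 0. Over all 12048 measured genes 5.59% were called higher and 20.9% lower, with a median of -0.21, against 0.14 for the mitotic genes. Relative to that median, 12 were called higher and 0 lower, 24 stood above and 10 below 0, and all measured genes split evenly (9.79% higher and 9.99% lower). The highest were Plk1 at 0.88 (95% interval 0.49 to 1.29), Cdkn3 at 0.84, Ccnb2 at 0.81 and Ube2c at 0.81 (95% interval 0.71 to 0.91). The lowest were Ect2 at -0.78 (95% interval -0.99 to -0.56), Mki67 at -0.62 (95% interval -0.76 to -0.49), Kif11 at -0.58 and Anln at -0.49.

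This split went with transcript length in part. Cenpf, the longest of the 34 at 11130 bases, stood above 0, and the short Aurka and Aurkb (1905 and 1950 bases) were above 0 but not called. Taking the longest transcript of each gene in GENCODE vM21, the 8 genes called higher measured 1531 to 3806 bases and the 2 called lower 4086 and 10061. All measured genes with a length (99.2% of them) were then cut by length into 3 groups of equal size: their median log2 ratio was 0.05 in the shortest group (up to 2547 bases), -0.23 in the middle and -0.45 in the longest (from 4251 bases). The mitotic genes of the same length groups had medians of 0.75 (10 genes, all above 0), 0.11 (15 genes, 9 above 0) and -0.38 (9 genes, 7 below 0), so they stood well above all genes among short transcripts and close to them among long ones. In the RNA-rich cells alone all genes went from 0.06 to -0.27 and the mitotic genes from 0.67 to -0.22. In basal-like cells all genes stayed between 0.04 and 0.08, and the mitotic genes stood at 0.50, 0.62 and 0.42 over the 31 measured there. Without the RNA-rich cluster 34 of 34 genes were above 0, 20 called higher and 0 lower, with 14.6% of all genes higher and 12.7% lower in that setting, and the summed log2 ratio was 0.70. With every cell weighted equally that ratio was 0.51, with finer clusters 0.36, and without the barcode that held most mitotic UMIs in each library 0.25. For disease over healthy the length groups of all genes were at 0.05, -0.00487 and -0.01 and the mitotic genes at 0.85, 0.53 and 0.37. What part length has in these differences was not tested.

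**Figure D4:**
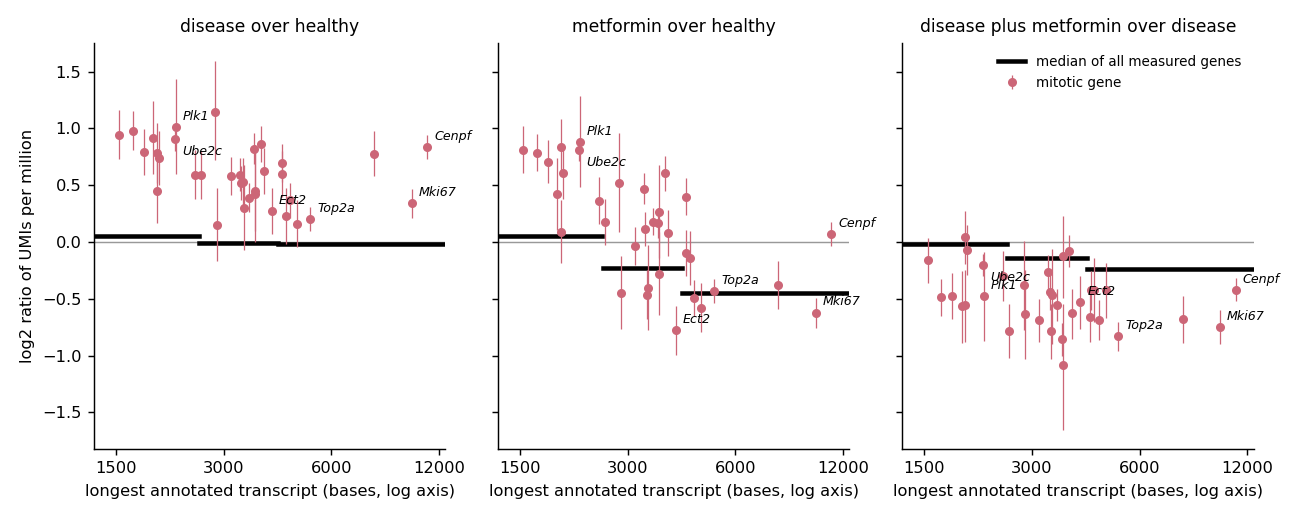
Log2 ratio of each mitotic gene between 2 libraries in keratinocyte-like cells (y axis, red points with 95% counting intervals) against the length of its longest annotated transcript (x axis, bases, log scale) in 3 comparisons; black lines are medians of all measured genes in each of 3 length groups. In metformin over healthy the lines step down from 0.05 to -0.45 and the medians of the mitotic genes from 0.75 to -0.38, with Cenpf, the longest, above 0.

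The thinned share of cycling cells was 29.7% with metformin and 25% in the healthy library, a log2 ratio of 0.25 (95% interval -0.08 to 0.59). Before thinning it was 0.30 (95% interval 0.05 to 0.56). The first interval includes 0 and the second does not, and both are too wide for shares of this size. The level per cycling cell was 42.2 against 36.4 UMIs per 10000, a log2 ratio of 0.21 (95% interval 0.18 to 0.24), and without the RNA-rich cluster 0.05. In cycling cells 8 genes were called higher and 2 lower, with 6.24% and 20.4% of all genes. By layer the sum was higher with metformin in these 4 classes, by 0.47 in basal-like, 1.24 in keratinized suprabasal-like, 1.03 in soft-mucosa suprabasal-like and 0.16 in RNA-rich cells. Of the other lists, 3 of 40 other mitotic genes were called higher and 2 lower, 1 and 1 of 29 S phase genes, 0 and 10 of 22 transcription and G1 regulators, and 38 and 0 of 52 measured histone genes.

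The third comparison sets the treated against the untreated diseased gingiva. The mitotic genes together were lower in the disease plus metformin library, at 3092 against 4309.6 CPM, a log2 ratio of -0.48 (95% interval -0.51 to -0.45). Below 0 stood 33 of 34, 12 of them called lower and 0 called higher, with 13.6% of all 11560 genes called lower and 4.0% higher. The exception in sign was Cdkn3, at 0.04 (95% interval -0.19 to 0.27). The midzone genes Kif20a, Prc1 and Kif23 and the topoisomerase Top2a stood lowest: Kif20a at -1.09 (95% interval -1.66 to -0.55), Prc1 at -0.86 (95% interval -1.0 to -0.71), Top2a at -0.83 and Kif23 at -0.79, while after Cdkn3 the highest were Cdca3 at -0.07, Cenpa at -0.08 and Bub1b at -0.13. The median of all genes was -0.13 and that of the mitotic genes -0.48; relative to all genes 6 were called lower and 30 stood below 0, with 9.12% of all genes lower and 6.04% higher. The share of cycling cells was 26.5% against 32.4%, a log2 ratio of -0.29 (95% interval -0.62 to 0.04), and before thinning -0.12 (95% interval -0.38 to 0.13). Both intervals include 0 but are too wide for shares of this size, so they do not decide whether the shares differed. The level per cycling cell was 41.8 against 56.8 UMIs per 10000, a log2 ratio of -0.44 (95% interval -0.47 to -0.41). In cycling cells 11 genes were called lower and 0 higher, with 11.9% and 5.11% of all genes.

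The summed difference was not seen without the RNA-rich cluster, of which the disease library had 148 cells and the disease plus metformin library 44. Without it the summed log2 ratio turned to 0.04, 19 of 32 measured genes stood below 0 and 3 were called lower, with 16.9% of all genes called lower in that setting. With every cell weighted equally it was -0.26 and with finer clusters -0.28. The layers went different ways: -0.25 (95% interval -0.33 to -0.16) in basal-like, 0.50 (95% interval 0.36 to 0.63) in keratinized suprabasal-like, -1.60 (95% interval -2.43 to -0.85) in soft-mucosa suprabasal-like, from 17 and 106 UMIs, and -0.47 (95% interval -0.50 to -0.43) in RNA-rich cells. Of the other lists 14 of 40 other mitotic genes, 5 of 29 S phase genes and 26 of 51 measured histone genes were called lower, and 0, 1 and 0 higher.

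The last comparison, disease plus metformin over metformin, sets the 2 libraries under the drug against each other. The sums were close, 3092 and 3151 CPM, a log2 ratio of -0.03 (95% interval -0.06 to 0.00). The checkpoint gene Bub1b was the 1 gene called higher at 0.60 (95% interval 0.24 to 0.96) and Kif20a the 1 called lower at -0.93 (95% interval -1.48 to -0.41), with 8.62% and 7.0% of all genes. After them stood Ect2 at 0.52, Cenpe at 0.48 and Cenpf at 0.34 on the upper side and Cdc20 at -0.39, Ckap2 at -0.37 and Nusap1 at -0.34 on the lower. Length groups of all genes here went the other way, from 0.00102 in the shortest to 0.19 in the longest, and the mitotic genes from -0.09 to 0.17. The shares of cycling cells gave a log2 ratio of -0.17 (95% interval -0.49 to 0.15), and before thinning -0.22 (95% interval -0.47 to 0.03). Both intervals are too wide for shares of this size and do not decide whether the shares differed. The levels per cycling cell gave a log2 ratio of -0.01 (95% interval -0.04 to 0.02), which includes no difference. By layer the sum gave -0.35 in basal-like, 0.26 in keratinized suprabasal-like, -2.37 (95% interval -3.17 to -1.68) in soft-mucosa suprabasal-like and 0.02 in RNA-rich cells. In cycling cells 1 gene was called higher and 1 lower, with 11.9% and 6.78% of all genes.

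Cycling keratinocyte-like cells differed widely in how much mitotic RNA they held. Per cell, the median was 44.8 mitotic UMIs per 10000 in the healthy library (quartiles 26.6 and 67.2), 53.8 with metformin (31.1 and 81.0), 60.6 in disease (38.1 and 93.1) and 58.2 in disease plus metformin (32.3 and 82.9). The healthy cells were lowest by this measure and the disease cells highest, with quartile ranges that overlapped in all 4. Of the 3659 keratinocyte-like cells 2008 held no mitotic UMI, 353 held UMIs of 1 gene and 642 of 8 or more. The 1150 cycling cells held 99.1% of the mitotic UMIs, a share that the mark of 3 of these same genes largely sets. They also held 76.6, 74.1, 75.4 and 73.0% of all keratinocyte-like UMIs in the healthy, metformin, disease and disease plus metformin libraries.

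What else marks a cycling gingival keratinocyte was read from genes outside the list, at 1000 UMIs per cell, in 706 cycling against 1728 other cells. Over all 6967 genes with 20 UMIs, 31.9% were at least 1.5-fold higher in cycling cells and 8.78% lower, with a median log2 ratio of 0.29, and list counts are read against that. The 40 other mitotic genes summed to 3312 CPM in cycling and 458 CPM in other cells. Of these genes 34 reached 20 UMIs and all 34 were higher, but some reached it only through the cycling cells, which fixed their direction, so counts of measured genes are a description here and in the lists that follow. Aspm, a spindle pole protein, was at 62.3 against 2.89 CPM. Cdca2, a chromosome-bound phosphatase partner, had 21 UMIs against 1, and the centrosome kinase Nek2 19 against 1. Cit, a kinase of cytokinesis, had 23 UMIs against 0. Aspm, Cdca2, Nek2 and Cit owe their 20 UMIs to the cycling cells and were named for the largest folds, so their values are a description only. The 29 S phase genes summed to 1152 against 435 CPM, and 18 of 22 measured were higher, led by Clspn, a replication checkpoint mediator, the ribonucleotide reductase Rrm1, thymidine kinase (Tk1) and the chromatin assembly factor Chaf1a; Tk1 was at 122 against 24.3 CPM and Rrm1 at 72.2 against 12.7 CPM. The histone genes summed to 4918 against 1157 CPM, and of 33 measured 32 were higher and 1 lower, with Hist1h3c at 263 against 44.0 CPM. All 3 sums were thus higher in the cycling cells.

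Regulators were mixed. Of 13 measured transcription and G1 regulators 8 were higher and 2 lower. Cdc25b, the phosphatase that activates Cdk1, was at 43.9 against 8.10 CPM, and Lin54, the DNA-binding subunit of MuvB, at 19.8 against 6.37 CPM. E2f1 was at 2.83 against 12.7 CPM, from 2 and 22 UMIs. Cdc25b reached 20 UMIs only through the cycling cells and E2f1 only through the other cells, which fixed their directions. Of 8 measured Cdk inhibitors and quiescence genes 3 were higher and 1 lower. Cdkn2d, an inhibitor of Cdk4 and Cdk6, was at 171 against 23.1 CPM, Cdkn2c at 55.2 against 16.8 CPM and Cdkn1b at 79.3 against 30.1 CPM. The p53 target Cdkn1a was on the other side, at 55.2 against 137 CPM, a log2 ratio of -1.31 (95% interval -1.83 to -0.81). Of 15 layer markers 0 were higher and 9 lower, led by the keratins of differentiated layers: Krt16 was at 66.6 against 686 CPM, Krt4 at 184 against 1615 CPM and Krt10 at 32.6 against 207 CPM. Within basal-like cells alone (391 against 778), where 25.1% of all genes were higher and 9.6% lower, 19 of 19 other mitotic genes, 8 of 16 S phase genes and 26 of 27 histone genes were higher, and 1 of 14 layer markers was lower. Cdkn2d was there at 194 against 30.8 CPM. Cdkn1a turned to the other side within the basal-like layer, at 46.0 against 28.3 CPM from 18 and 22 UMIs, a log2 ratio of 0.70 (95% interval -0.28 to 1.67), which includes no difference, so its lower level over all layers was not seen among basal-like cells.

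The 34 genes do not all act at the same time, and histone RNA, which is abundant in S phase and degraded afterwards, was measured beside each of them. For each gene, cycling cells were chosen by the other 33 and cut into those with and without the gene, all at 1000 UMIs. Histone RNA was lower in the cells with the gene for 26 of 34 genes, with an interval below 0 for 19, and above 0 for 6. The lowest were Cenpa, with 2.69 against 5.67 histone UMIs per 1000, a log2 ratio of -1.07 (95% interval -1.22 to -0.93), Kif2c at -1.06 (95% interval -1.40 to -0.74), Cdkn3 at -1.02 (95% interval -1.23 to -0.82) and Cenpf at -0.94 (95% interval -1.07 to -0.81). Pttg1, Ccnb1 and Cdc20, which act from prophase to anaphase, were at -0.71, -0.57 and -0.53. At the other end Aurkb, with 6.46 against 4.75 histone UMIs per 1000, stood at 0.44 (95% interval 0.27 to 0.62), and was above 0 in all 4 libraries; Nusap1, Birc5, Racgap1, Cdca8 and Cdk1 followed at 0.23, 0.19, 0.19, 0.15 and 0.14. Top2a, needed already during replication, and Mki67 lay near 0 by histone RNA, at -0.09 (95% interval -0.22 to 0.03) and -0.14 (95% interval -0.29 to 0.01). The 29 S phase genes gave 0.40 (95% interval 0.16 to 0.63) for Top2a, 0.55 (95% interval 0.19 to 0.90) for Aurkb and 0.60 (95% interval 0.22 to 0.96) for Kif11 on the upper side, and -0.91 (95% interval -1.35 to -0.51) for Cdkn3 and -0.71 (95% interval -1.0 to -0.44) for Cenpa on the lower. Cells holding Cenpa were thus poor in RNA of both lists, and cells holding Aurkb were rich in both.

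In all 4 libraries the histone value was lower with the gene for 12 genes, Cenpf, Pttg1, Ccnb1 and Ube2c among them, and higher for 1, Aurkb; for Cenpa, Kif2c and Cdkn3 it was lower in 3 of 4. In basal-like cells alone 22 of 34 were below 0, Cenpa at -1.21, Cdkn3 at -1.18 and Aurkb at 0.39, while Mki67 stood at 0.54 from 25 cells. Although thinned to 1 depth, the cells with and without a gene had different original depths for some genes (median 9217 against 3134 UMIs for Mki67, 3436 against 3690.5 for Cenpa), and the part of depth was not tested.

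**Figure D5:**
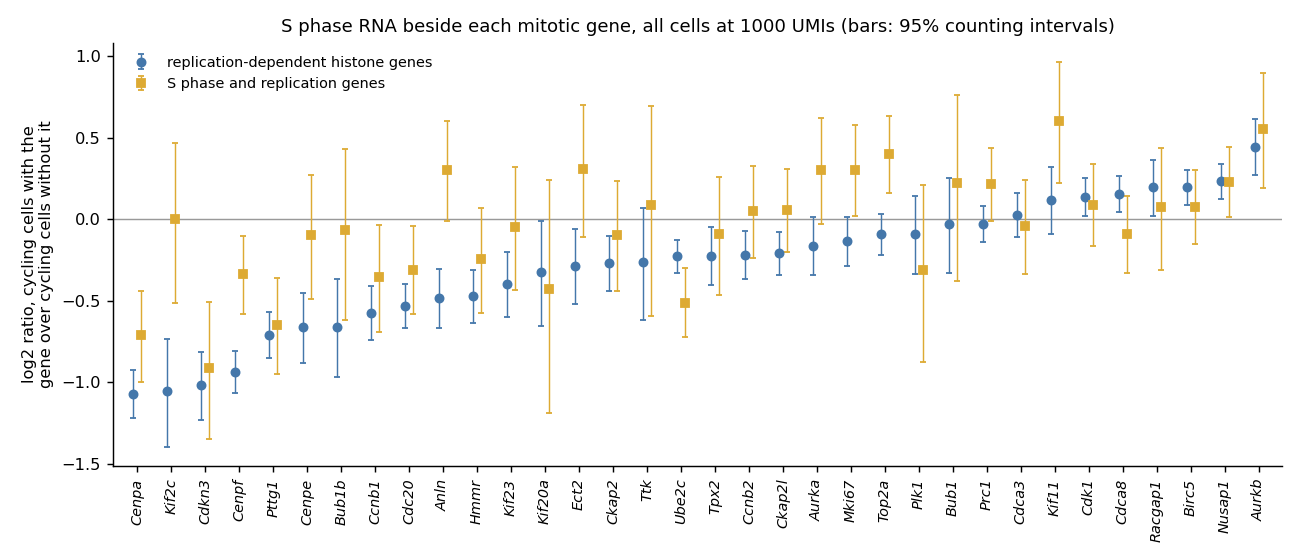
Log2 ratio of histone RNA (blue circles) and of RNA of S phase genes (yellow squares) between cycling keratinocyte-like cells with and without each mitotic gene (y axis), all cells at 1000 UMIs, with 95% counting intervals; genes are ordered by the histone ratio (x axis). The order runs from Cenpa at -1.07 to Aurkb at 0.44.

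The genes outside the list whose level was most like the summed level of the 34, over 33 profiles of a class in a library with at least 20 cells, were Knstrn (Pearson's r 0.897), Pclaf (0.891), Esco2 (0.885), Kif22 (0.879), Tacc3 (0.877), Cenpm (0.867), H2afx (0.865), Ccna2 (0.865), Spc25 (0.860) and Pbk (0.859), on the scale of log2(CPM + 10). Profiles of 1 library share its depth, and the values describe these profiles only. Knstrn encodes a spindle and kinetochore protein, Pclaf a partner of the replication clamp, Esco2 a cohesin acetyltransferase, and Ccna2 the cyclin that bridges S phase and mitotic entry.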

How the data were processed

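The 4 matrices hold UMI counts per gene and cell as deposited by the authors; per the submitters' processing notes they were made with bcl2fastq and Cell Ranger 7.0.1 on mm10, and the chemistry and annotation are not given in the sources used here. Kept were barcodes that had 200 or more genes and whose mitochondrial UMIs made up no more than 20% (7134 of 8295). Cells were clustered with scanpy 1.11.5 (2000 variable genes without 204 cell cycle and histone genes, 30 principal components, 15 neighbours, Leiden resolution 1 with igraph 0.11.9), and 20 of 25 clusters were named from 17 marker lists. Counts were summed per library and class and divided by the class total; ratios have exact binomial, levels exact Poisson and shares Clopper-Pearson intervals (scipy 1.17.1). A gene was called higher or lower at 1.5-fold with at least 20 UMIs over both libraries, and 3 counts stand for 0; the call was checked on simulated data. The 34 genes, all of which are named with their values, and the lists (other mitotic genes, S phase and replication genes, transcription and G1 regulators, Cdk inhibitors and quiescence genes, histone genes, layer markers) were chosen with earlier results of these data known. By rule the text names up to 4 highest and 4 lowest genes a comparison, the 3 with most UMIs in a class, up to 4 of a list with the largest fold, and the 10 most alike; a gene of these lists named beyond that was chosen after its values were seen. Promoter windows come from RefSeq on GRCm38.p6 and transcript lengths from GENCODE vM21 on the same assembly. Alternatives changed the mark of a cycling cell, thinning, weighting, scaling, cell filters, clustering and the fold.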

Additional observations from a re-analysis of the deposited data

Results flagged for a closer look

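Metformin over healthy and disease plus metformin over disease, the 2 comparisons of a library under metformin with one that was not, went in opposite directions in 3 measures, and whether they differ was not tested. The summed log2 ratio of the 34 genes in keratinocyte-like cells was 0.16 in the first and -0.48 in the second. Per cycling keratinocyte-like cell it was 0.21 and -0.44, and summed over basal-like cells 0.47 and -0.25. In keratinized suprabasal-like cells both were positive, at 1.24 and 0.50, and without the RNA-rich cluster the second summed ratio was 0.0394.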

How the results depend on the processing

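Over 168 alternative values, 114 stayed within the counting interval or, for counts, within 1.5 times the main count, 53 moved and 1, a called value, changed sign. The 114 include the settings of at least 1 and at least 100 UMIs, which could not change a count because all 34 genes passed both. They also include shares, whose intervals are too wide, so the tally is no measure of stability. Values below are log2 ratios unless called counts, in the order disease over healthy, metformin over healthy, disease plus metformin over disease, and disease plus metformin over metformin. Without the RNA-rich cluster, an alternative chosen after seeing the data, the summed level was 0.54, 0.70, 0.0394 (the reversed value) and -0.13, and the level per cycling cell 0.39, 0.0547, -0.15 and 0.18. In that setting the counts called were 20 higher and 0 lower for metformin over healthy (all genes 14.6% and 12.7%). They were 3 lower for disease plus metformin over disease (all genes 16.9%) and 0 higher for disease plus metformin over metformin (all genes 7.74%). With every cell weighted equally the summed level was 0.57, 0.51, -0.26 and -0.20, and the level per cycling cell 0.45, 0.28 and -0.16 in the first 3 comparisons. At clustering resolution 2, where most RNA-rich cells fell out of the named clusters, the summed level was 0.67, 0.36, -0.28 and 0.0205, and the level per cycling cell 0.86, 0.60, -0.00324 and 0.26. Without the barcode that held most mitotic UMIs in each library, disease over healthy was 0.69 summed and 0.72 per cycling cell, metformin over healthy 0.25 and 0.30, with a count of 1 lower (all genes 20.9%). Scaled by the median ratio of all genes, the last 3 comparisons gave 0.37, -0.35 and -0.12 summed, with 0 lower, 6 lower and 0 higher (all genes 9.99% lower, 9.12% lower and 6.37% higher). With stricter cell filters (500 genes, 10% mitochondrial UMIs), disease over healthy was 0.66 summed and 0.69 per cycling cell, and disease plus metformin over disease -0.52 and -0.49. In cells with a Malat1 and a mitochondrial UMI, disease plus metformin over disease was -0.40 summed and -0.51 per cycling cell, disease plus metformin over metformin 0.0563 summed, and metformin over healthy 0.17 per cycling cell. A mark of 2 genes gave 0.24 per cycling cell for metformin over healthy, and a mark of 5 gave 0.61 for disease over healthy. At a fold of 2, the counts were 2 higher for disease over healthy (all genes 2.81%) and 0 higher and 0 lower for metformin over healthy (all genes 2.51% and 5.07%). They were 1 lower for disease plus metformin over disease (all genes 4.39%) and 0 higher and 0 lower for the last (all genes 2.24% and 3.27%). The cause of these changes was not tested, apart from the removal of cells that each setting makes. In the last comparison, whose main values lie near 0, 2 of 9 summed values, 4 of 10 per cycling cell and 1 of 11 shares also turned above 0. The share of cycling cells ranged over its 11 alternatives from 0.19 to 0.63, 0.16 to 0.33, -0.56 to -0.02 and -0.26 to 0.05 in the 4 comparisons. Without thinning, 40 of 40 other mitotic, 27 of 29 S phase and 52 of 54 histone genes were higher in cycling cells, with 55.6% of all genes. No paired analysis was possible because each group has 1 library, and for the same reason no library could be left out; these data therefore do not separate a difference between conditions from one between libraries, and doublets and free RNA remain in the counts.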
